A study of Homo sapiens with 6 samples.

Results

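Of 105441 open regions in RH30 cells, 1039 were called in all 3 vector libraries and in 0 of 3 MyoD-deleted libraries and held the palindromic E-box CAGCTG within 100 bp of their summit. A region here is a set of overlapping ATAC-seq peaks of any library, on chromosomes 1 to 22 and X, and its summit is that of the peak with the highest fold enrichment. Lost regions, called in all vector and no MyoD-deleted libraries, numbered 1876 (1.78% of all regions), so that the 1039 were 55.4% of them and 837 lost regions held no CAGCTG there. A CAGCTG stood in the same window of 25.4% of all regions, 31.9% of distal regions called in all 6 libraries and 13.4% of gained regions, which are those called in all MyoD-deleted and no vector libraries. The regions were selected on the peak calls and on the sequence at their own summit, so their absence from the MyoD-deleted lists is a description, with no test.

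ATAC-seq marks open chromatin by inserting sequencing adapters with the Tn5 transposase. RH30 is an established line of fusion-positive rhabdomyosarcoma, a childhood tumour of the skeletal muscle lineage, and was grown in RPMI with 10% fetal bovine serum. Editing was by Cas9, for which the study's methods describe delivery both by lentiviral transduction and by transfection. Vector cells had a scramble guide and MyoD-deleted cells had guides against MyoD, with 3 libraries each that the labels call biological replicates. The sources used here do not state whether the edited cells of the ATAC-seq were a pool or clones, nor which of the MyoD guides they carried. The labels and methods name RH30, while the results text of the study uses both RH30 and RH30-SR, a derivative with an NF-κB super repressor, for the ATAC-seq, so both names are given here.

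MyoD is a basic helix-loop-helix (bHLH) transcription factor that pairs with E proteins such as those encoded by TCF3, TCF4 and TCF12, and the pair binds E-boxes, sites of the form CANNTG. The site CAGCTG, with GC in its centre, is the E-box best known for MyoD and myogenin, while CAGGTG is bound by many other bHLH pairs as well. In muscle precursors MyoD can open chromatin at such sites and turn on muscle genes, and Id proteins block it by taking up the E proteins. Because CAGCTG reads the same on both strands, the bases next to it are counted on both sides.

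The sites of 11 of these regions are printed first, since they carry the E-box that defines the group. Apart from CYLD, they are from the strongest regions or at genes of muscle and of this tumour. The CYLD site was added after its values were seen, because the study's title names the gene. Each line gives 60 bases of GRCh38 (hg38), plus strand, with CAGCTG in capitals, centred on the copy nearest to the summit.
PAK3, chrX:110964927-110964986: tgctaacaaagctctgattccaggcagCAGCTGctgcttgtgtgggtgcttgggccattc
NXPH1, chr7:9250954-9251013: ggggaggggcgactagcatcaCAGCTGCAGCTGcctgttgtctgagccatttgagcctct
DOK5, chr20:55140762-55140821: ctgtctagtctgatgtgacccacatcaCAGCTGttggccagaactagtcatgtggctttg
TET2, chr4:104906521-104906580: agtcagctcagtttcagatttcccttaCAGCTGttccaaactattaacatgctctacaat
ALK, chr2:29475556-29475615: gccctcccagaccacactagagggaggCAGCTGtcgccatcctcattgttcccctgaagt
LMOD3, chr3:69122638-69122697: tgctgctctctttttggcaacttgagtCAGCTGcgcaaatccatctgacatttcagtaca
CSRP3, chr11:19218949-19219008: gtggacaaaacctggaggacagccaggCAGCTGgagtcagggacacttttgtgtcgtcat
MYOG, chr1:203065354-203065413: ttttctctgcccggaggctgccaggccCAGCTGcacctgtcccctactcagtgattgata
KLHL41, chr2:169514102-169514161: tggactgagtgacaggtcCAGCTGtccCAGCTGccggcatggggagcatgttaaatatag
MYCN, chr2:15849909-15849968: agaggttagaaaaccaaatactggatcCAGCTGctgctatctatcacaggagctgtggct
CYLD, chr16:50918131-50918190: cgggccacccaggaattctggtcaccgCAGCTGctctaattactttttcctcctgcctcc

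The peak lists of the vector libraries held 74041, 63068 and 64602 peaks and those of the MyoD-deleted libraries 73673, 80352 and 80530. Without read totals the depth of a library cannot be known from them. Its smallest local background, which rises with depth, was 2.22 to 3.41 fragments in vector and 2.27 to 2.35 in MyoD-deleted libraries. The smallest pileup, the number of fragments over a summit, that was called in any MyoD-deleted library was 8. Both directions of call were present, with 4813 regions called only in the 3 MyoD-deleted libraries. Regions within 2 kb of the 5′ ends of MYOD1, MYOG, PAX3 and DES, genes that mark this tumour, were called in all 6 libraries. Among all regions called in a library, the MYOD1 promoter region ranked at the 72.2 ± 2.30 percentile of fold enrichment in vector and the 69.8 ± 3.71 percentile in MyoD-deleted libraries (SD, n = 3 each). Ranked only among the 47847 regions called in all 6, it had a limma adjusted p of 0.408. By summit pileup, centred on the median region, its log2 change was −0.49 (limma adjusted p = 0.0021). Neither value shows whether the gene was edited.

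The lost CAGCTG regions were of modest strength in the vector libraries. Their median fold enrichment over the local background was 5.22, 5.42 and 5.19 in vector replicates 1, 2 and 3, against 8.79, 8.86 and 8.62 in the 11874 distal regions (over 2 kb from a 5′ end) with CAGCTG that were called in all 6 libraries. In lost regions without CAGCTG the median fold enrichment was 4.99, 4.96 and 4.57, so modest strength was not particular to the CAGCTG group. The median pileup of the lost CAGCTG regions was 29, 21 and 23 fragments. As a percentile of all peaks of the same library, averaged over the 3 vector libraries, they lay between 0.04 and 89.5 with a median of 30.6, and 175 of them (16.8%) stood at 50 or above and 13 at 75 or above. The SD of a region over the 3 vector libraries had a median of 8.30 percentile points. In all 3 vector libraries, 735 of the regions (70.7%) had at least 16 fragments at the summit and 184 (17.7%) at least 32, which are 2 and 4 times the smallest pileup called after deletion. That smallest pileup was taken over all regions, and the pileup needed for a call rises with local background. Some of the 184 lay over a high background, such as the MYOD1 region with 213, 145 and 157 fragments at only 2.69, 2.96 and 2.62-fold. These counts thus do not show how far a region stood above its own threshold. A region that was not called can still hold fragments below the caller's threshold, so absence of a call is not absence of open chromatin.

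Regions just outside the rule formed a graded series with those inside it. With CAGCTG and a call in all 3 vector libraries, 767 regions were called in 1 MyoD-deleted library, 1073 in 2 and 13452 in all 3. Their median vector rank rose from 34.1 to 37.4 and 64.1. Where 1 or 2 MyoD-deleted libraries called the region, its highest pileup there had a median of 16 and 21 fragments. On the distance limit, 49 lost regions had their nearest CAGCTG 90 to 100 bp from the summit and 30 had it at over 100 and up to 110 bp.

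The 10 strongest of the regions, by mean rank in vector libraries, lay far from promoters. The first was in an intron of PAK3, a kinase that acts downstream of Rac and Cdc42 (chrX:110964534-110965592). Its fold enrichment was 13.4, 13.1 and 12.9 and its pileup 76, 58 and 78 fragments in the 3 vector libraries. The region nearest to NXPH1, a neurexin ligand, was intergenic at 817.4 kb from the 5′ end (chr7:9250702-9251511) and reached 12.9, 11.9 and 11.4-fold. Its printed site shows a pair of CAGCTG copies placed directly end to end. The region 665.2 kb from DOK5, an adaptor of receptor tyrosine kinases, had 53, 37 and 40 fragments, and an ACAGCTGT site 13.5 bp from its summit.

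Among the same 10 were regions nearest to SMARCA2, an ATPase of the SWI/SNF remodelling complex, to NR3C2, the mineralocorticoid receptor, to EPHA3, an ephrin receptor, and to TET2. TET2 oxidises methylated cytosine, and its region lay 239.3 kb from the 5′ end (chr4:104906163-104907243) with 2 CAGCTG copies and 12.2, 9.63 and 10.9-fold enrichment. The remaining 3 were inside ZCWPW2 and nearest to ANKRD18B and ZNF658 on chromosome 9. ZNF658 had the widest spread of the 10, with 9.98, 16.3 and 8.57-fold, and ANKRD18B and ZNF658 have near-identical copies elsewhere on that chromosome, so reads may have been shared between copies. When the same regions were ranked by −log10 p, which depends on depth and height together, their means fell from 77.1 to 89.5 down to 57.6 to 71.6.

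**Figure D1:**
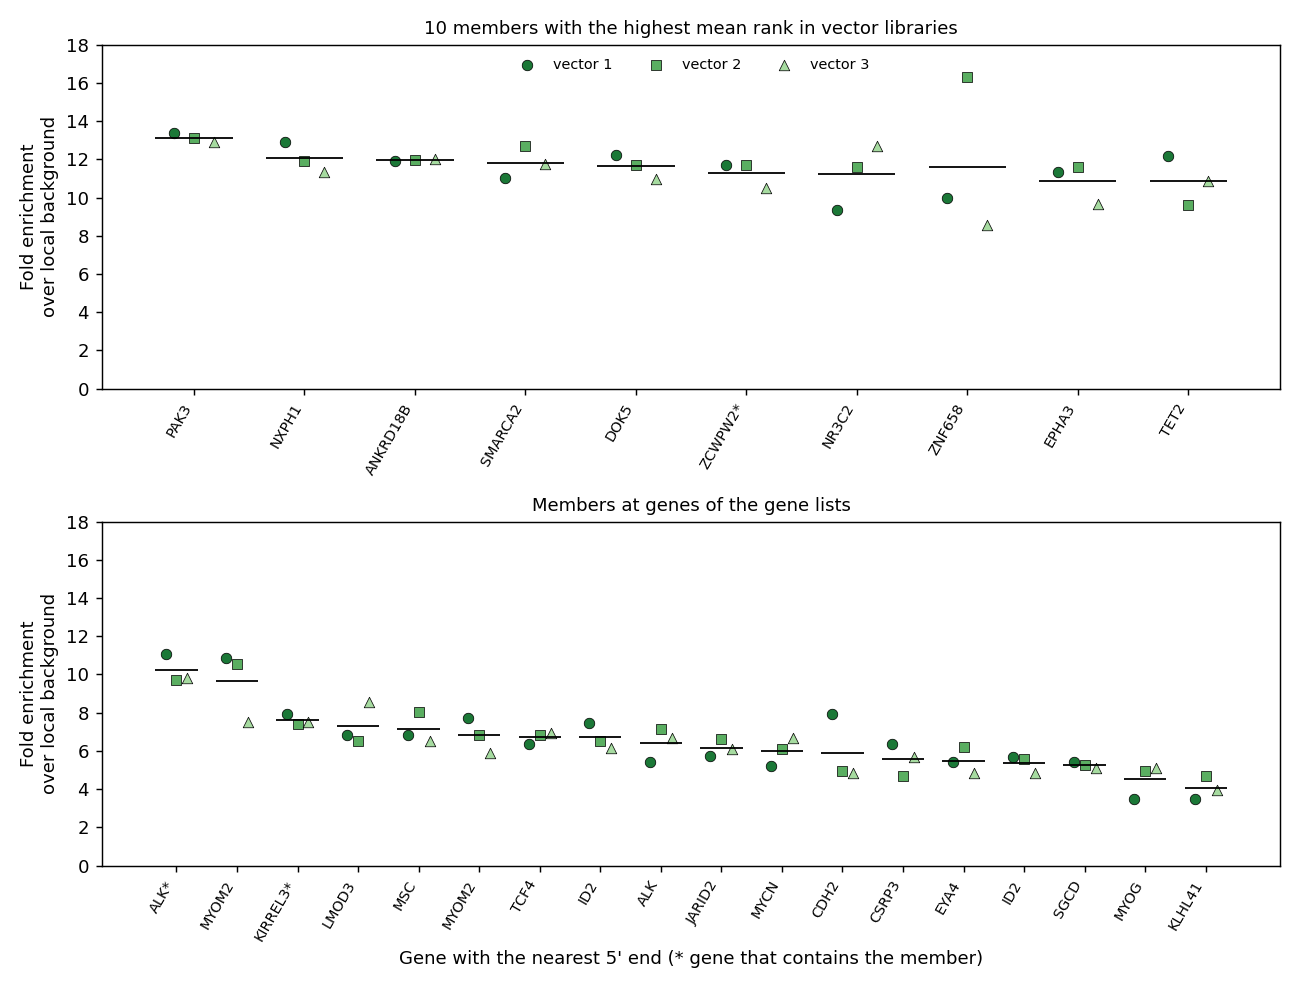
Fold enrichment over the local background (vertical axis, no unit) of lost CAGCTG regions in each of the 3 vector libraries (symbols) with their mean (line). The 10 regions with the highest mean rank are above, between 8.57 and 16.3-fold, and below are up to 4 regions of each gene list, those of highest rank, so that weaker regions at list genes are not shown. Of those shown, an ALK and a MYOM2 region have the highest fold enrichment and KLHL41 the lowest, near 4-fold.

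Some of the regions lay at genes of muscle. Of 26 myogenic regulators with any open region, 6 had a lost CAGCTG region nearest to their 5′ end or inside them (23.1%), against 1110 of 18242 protein-coding genes (6.08%). The list genes had more open regions than most, with a median of 8.5 a gene against 4. Among them were MYOD1, MYOG, MEF2D, EYA4 and KLHL41. The MYOG region, for the myogenic factor myogenin, was in an intron of the neighbouring gene PPFIA4, 20.6 kb from the MYOG 5′ end (chr1:203065139-203065564). It had 51, 52 and 61 fragments in the vector libraries but only 3.50, 4.94 and 5.08-fold enrichment. Its site, printed above, is followed directly by a CACCTG E-box.

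KLHL41, a kelch protein of skeletal muscle, had its region in its own intron 4.5 kb from the 5′ end (chr2:169513718-169514418), with 44, 38 and 38 fragments and 2 CAGCTG copies. The region of EYA4, a transcriptional cofactor of early muscle development, lay 167.3 kb away. The MYOD1 region was 70.9 kb from the 5′ end and held a CAGCTG 78.5 bp from its summit. It had 213, 145 and 157 fragments in the vector libraries, far above the median of the lost CAGCTG regions, but only 2.69, 2.96 and 2.62-fold enrichment over a high local background, which put it at a mean fold enrichment rank of 1.97.

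Among sarcomere genes, 5 of 48 with any region had 8 lost CAGCTG regions between them (10.4% of genes). LMOD3, which builds thin filaments of actin, had one at its promoter, 0.4 kb from the 5′ end (chr3:69122222-69123630), and a further one in an intron. The promoter region had 30, 20 and 32 fragments and 6.85, 6.51 and 8.56-fold enrichment. The 300 bases around the LMOD3 start in RefSeq (GRCh38.p14) hold 2 CAGCTG copies, and 17.7% of 27305 promoters of that table hold any. CSRP3, the muscle LIM protein, had 2 regions, of which the nearer was 8.4 kb from the 5′ end (chr11:19218624-19219288) with 42, 17 and 26 fragments and a CAGCTG 5.5 bp from the summit. The other 3 genes were MYOM2, TPM1 and XIRP2, and the MYOM2 regions lay 934.4 and 1178.8 kb away, inside CSMD1.

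Of 23 genes of myoblast fusion and the muscle membrane, 6 had a region (26.1%, median 13 open regions a gene). Among them were CDH2, CKM, KIRREL3, NCAM1 and SGCD. The strongest was in an intron of KIRREL3, an adhesion protein of the family that mediates myoblast fusion in flies, with 3 CAGCTG copies, 34, 23 and 27 fragments, and a nearest 5′ end that belonged to ST3GAL4. The region of the dystrophin-linked protein gene SGCD lay 19.8 kb from its 5′ end with 23, 16 and 18 fragments. Of 23 bHLH partners and inhibitors, 5 had a region (21.7%, median 14 open regions), namely TCF4, ID2, MSC, BHLHE40 and ZEB2. ID2, an inhibitor of MyoD, had 2 of them, and the TCF4 region, in an intron of this E protein gene, had 6.35, 6.82 and 6.96-fold enrichment in the vector libraries.

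Of 22 genes linked to fusion-positive rhabdomyosarcoma, 7 had 11 regions (31.8%, median 12.5 open regions a gene). ALK, a receptor tyrosine kinase, held 5 of the 11 inside its gene body. The ALK region highest in both fold enrichment and pileup (chr2:29475177-29476169) had 67, 42 and 53 fragments and 2 CAGCTG copies. The ALK region lowest in pileup had 14, 12 and 12 fragments and a mean rank of 10.5, and the one lowest in rank, at 5.45, had 40, 46 and 44 fragments. MYCN, which encodes N-Myc, had a region 90.6 kb from its 5′ end (chr2:15849634-15850383) with 22, 19 and 24 fragments. JARID2, a partner of the Polycomb repressive complex, had one in an intron 9.6 kb from its 5′ end with 44, 30 and 31 fragments. NOS1, CNR1, POU4F1 and DCX had the others.

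No lost CAGCTG region was assigned to any of 15 neuromuscular junction genes, 20 excitation-contraction coupling genes or 19 epithelial marker genes with open regions. Of 10 DNA methylation genes, 1 had such a region, TET2. By the same assignment 6.08% of all protein-coding genes with open regions had one. In lists this short that share amounts to few genes, so these counts do not set the lists apart from other genes. Counts were also taken of only regions inside a gene or up to 5 kb upstream, which 3.18% of all genes had. Then 1 of 26 myogenic regulators (3.85%, near the share of all genes) and 3 of 45 sarcomere genes (6.67%) had a region. So did 2 of 23 fusion and membrane genes (8.70%), 2 of 22 bHLH genes (9.09%) and 4 of 22 tumour genes (18.2%). Most of the assignments were thus to distant regions, and the gene with the nearest 5′ end need not be the one a region acts on.

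CYLD, a deubiquitinase that the study's title names beside MyoD, was looked up after these values were seen. It had 6 regions by nearest 5′ end, of which 4 were called in all vector libraries and 1 was a lost CAGCTG region. That region was intergenic at 176.1 kb (chr16:50917886-50918342), with 2 CAGCTG copies, 5.5 bp from the summit at the nearest, and 19, 16 and 18 fragments. Its rank was 26.5 ± 1.38 (SD, n = 3). Among all regions called in a library, the CYLD promoter region, called in all 6 libraries, ranked at 96.7 ± 1.62 in vector and 96.6 ± 0.83 in MyoD-deleted libraries (SD, n = 3 each). Ranked only among the regions called in all 6, it had a limma adjusted p of 0.726.

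Most of the 1039 regions lay between or inside genes rather than at promoters. By GENCODE version 44, 501 (48.2%) were intergenic, 463 (44.6%) in introns, 53 (5.10%) in exons and 22 (2.12%) within 2 kb of a 5′ end. Few promoters were also found among lost regions without CAGCTG (2.75%) and gained regions (3.08%), against 22.2% of regions called in all 6 libraries and 11.9% of all regions. Their median distance to the nearest 5′ end was 73.3 kb, against 45.1 kb in distal CAGCTG regions called in all 6 libraries and 70.1 kb in the lost regions without CAGCTG. The 22 promoters included 3 of keratin-associated protein genes (KRTAP4-1, KRTAP4-5 and KRTAP5-5), each with 5 CAGCTG copies near the summit, and these genes stand in families of near-identical copies between which reads may be shared. Chosen after their values were seen, SPP1, the gene of osteopontin, and CA4, a carbonic anhydrase, also had a promoter region among them, 73 and 2 bp from the 5′ end.

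The regions were spread over many genes. By nearest 5′ end 920 genes had at least 1 (5.27% of 17468 genes with any region), 104 had 2 or more and 4 had 4. Those 4 were ARAP2, ARPP21, PLXNA2 and EFNA5. A further 7 genes had 3, and the rule took from these the gene with the fewest regions called in all vector libraries. That was CSMD1, where 3 of 3 such regions were lost CAGCTG regions, a share that the tie rule itself favours. CTTN and SEMA6A, tied with it, had 3 of 33 each. For EFNA5, an ephrin ligand, and PLXNA2, a semaphorin receptor, the lost CAGCTG regions were 4 of 33 and 4 of 22. The 4 EFNA5 regions ranged from 16.8 to 50.7 in mean rank. Only 87 of the 1039 (8.37%) had another within 50 kb. Chromosome X had the highest share of its vector regions among them (47 regions, 3.14%) and chromosome 19 the lowest (26, 1.17%).

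The E-box was close to the summit also in libraries that had not been used to place it. The summit that chose a region came from 1 vector library, and in the other 2 vector libraries, over 2078 summits, 85.9% had a CAGCTG within 100 bp at a median of 33.5 bp. In distal CAGCTG regions called in all 6 libraries the share was 87.6% of 30916 summits, at a median of 38.5 bp, so it was not higher in the lost regions. In the lost regions without CAGCTG, which were chosen to have none at their own summit, it was 11.9% of 1674 summits. These are repeat placements of a summit by libraries that helped to choose the regions, and not new sites. The nearest copy was at a median of 36.5 bp from the chosen summit, against 41.5 bp in distal regions called in all 6 libraries, and 64.0% against 58.7% lay within 50 bp.

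Copies of the E-box were more numerous in the lost regions. With 2 or more copies in the window there were 327 of 1039 (31.5%), against 2422 of 11874 (20.4%) distal CAGCTG regions called in all 6 libraries, and 63 held 3 or more. The most, 10, were in an intron of AHRR. Read the other way, of all regions called in the 3 vector libraries, 2.23% were lost with no copy, 5.53% with 1, 9.29% with 2 and 10.3% with 3 or more. Weak regions are lost more often, so the shares were also taken within 4 classes of mean vector rank. At ranks of 0 to 25 they were 8.28%, 16.1%, 26.3% and 39.3%. At ranks of 25 to 50 they were 3.33%, 9.33%, 16.0% and 20.6%. At ranks of 75 to 100 only 1 to 10 regions were lost at each number and the shares were all below 1%.

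**Figure D2:**
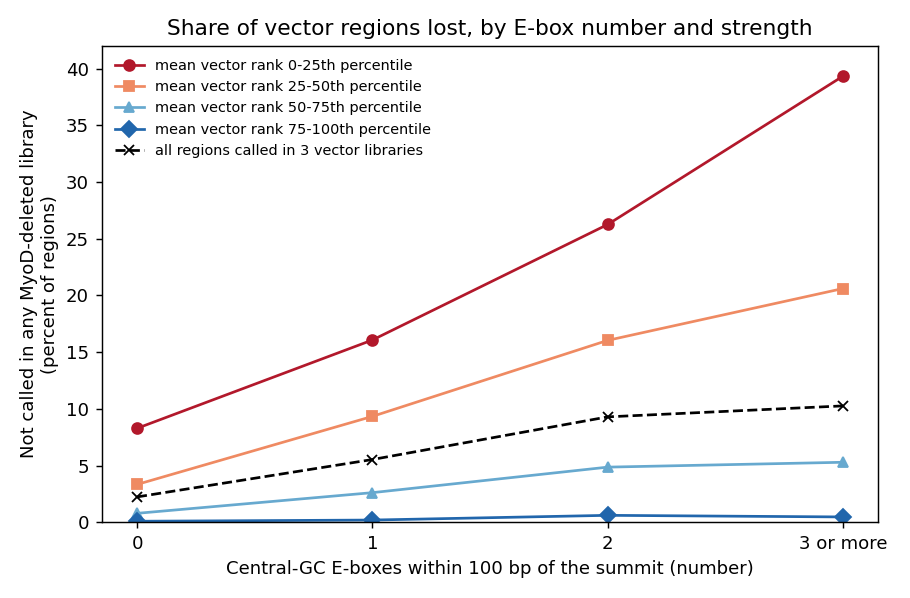
Percent of regions called in all 3 vector libraries that were called in no MyoD-deleted library (vertical axis) by the number of central-GC E-boxes within 100 bp of the summit (horizontal axis). Lines are classes of mean vector rank and the dashed line is all of them, and the share climbs from 8.28% to 39.3% in the weakest class.

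The share lost also went down with distance of the nearest copy from the summit, from 7.17% within 10 bp to 6.28% at 40 to 60 bp and 4.85% at 80 to 100 bp. Between copies in the same lost region, 20.2% of 420 spacings (start to start) were at least 10 and under 20 bp, against 14.3% of 2919 in distal regions called in all 6 libraries. The most frequent single spacing was 13 bp, with 14 of 420 (3.33% against 1.58%).

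The bases next to the E-box differed from those of other open CAGCTG sites. On the 2078 flanks of the nearest copies, the base 5′ of the site was A in 37.7%, G in 35.1%, C in 18.1% and T in 9.14%. In distal regions called in all 6 libraries these were 29.3%, 33.8%, 23.4% and 13.4%, and in the 643 gained regions with CAGCTG 18.5%, 26.3%, 31.8% and 23.4%. A was thus the most frequent flank in lost and the least frequent in gained regions.

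The same holds for loss by site. Of 14673 distal regions with CAGCTG called in all 3 vector libraries, 6.93% were lost. By the 8 bases around the nearest copy, the share was 9.93% for ACAGCTGT and 8.86% for ACAGCTGC, and 3.01% for TCAGCTGA and 2.87% for CCAGCTGA. These extremes were similar in median vector rank, at 56.2, 57.9, 54.6 and 54.6. At vector ranks of 0 to 50, ACAGCTGT was lost in 20.2% of 549 regions and CCAGCTGA in 5.22% of 364. The DOK5 and TET2 sites printed above are of the ACAGCTGT kind, and those of PAK3 and NXPH1 of the GCAGCTGC kind, which was lost in 7.42% of regions.

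Other E-boxes accompanied CAGCTG in many of the regions. CAGGTG or CACCTG was present in 339 (32.6%), against 16.5% of distal CAGCTG regions called in all 6 libraries and 16.2% of all regions, and it was present in 45.0% of lost regions without CAGCTG and 8.29% of gained regions. CAACTG or CAGTTG was present in 18.7%, against 11.8% and 10.8%. Of distal vector regions with CAGCTG, 12.0% were lost where a CAGGTG kind stood beside it and 5.75% where none did. At vector ranks of 0 to 25 these were 26.6% and 17.8%, and at 25 to 50 they were 18.3% and 9.47%.

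Motifs of other factor families were searched on both strands in the same window. AP-1 sites, TGACTCA or TGAGTCA, bound by Fos and Jun proteins, were present in 7.89% of lost CAGCTG regions. They were present in 12.5% of lost regions without CAGCTG, in 19.7% of distal CAGCTG regions called in all 6 libraries, in 18.1% of all regions and in 27.8% of gained regions. Distal vector regions with CAGCTG were lost in 3.07% of cases with an AP-1 site and in 7.77% without. At vector ranks of 0 to 25 the shares were 11.7% of 273 and 20.9% of 1676, and at 25 to 50 they were 5.79% of 622 and 12.3% of 3476.

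The letters GGAATG, the core of TEAD sites, were in 14.6% of lost CAGCTG regions against 18.5% of distal ones called in all 6 libraries and 17.5% of all regions. RUNX letters, TGTGGTT, were in 7.70% against 10.2% and 9.14%. SP/KLF letters, GGGCGG, were in 6.93% against 11.8% and 14.7%. The MEF2 site, of a factor family that works with MyoD in muscle, was in 25 regions (2.41%) against 2.47% and 2.91%, and in 5.02% of lost regions without CAGCTG. The CTCF core was in 0 of 1039 (a share of up to 0.289% is allowed by that count), against 1.02% and 1.31%. Of the 130 distal vector regions with both CAGCTG and that core, 0 were lost, which allows a share of up to 2.31% by counting error. In lost regions without CAGCTG, the TEAD, RUNX, SP/KLF and CTCF shares were 17.6%, 11.9%, 3.94% and 0.597%, so a low SP/KLF share was not particular to the CAGCTG group. A match is a match of letters in a window and shows no binding.

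**Figure D3:**
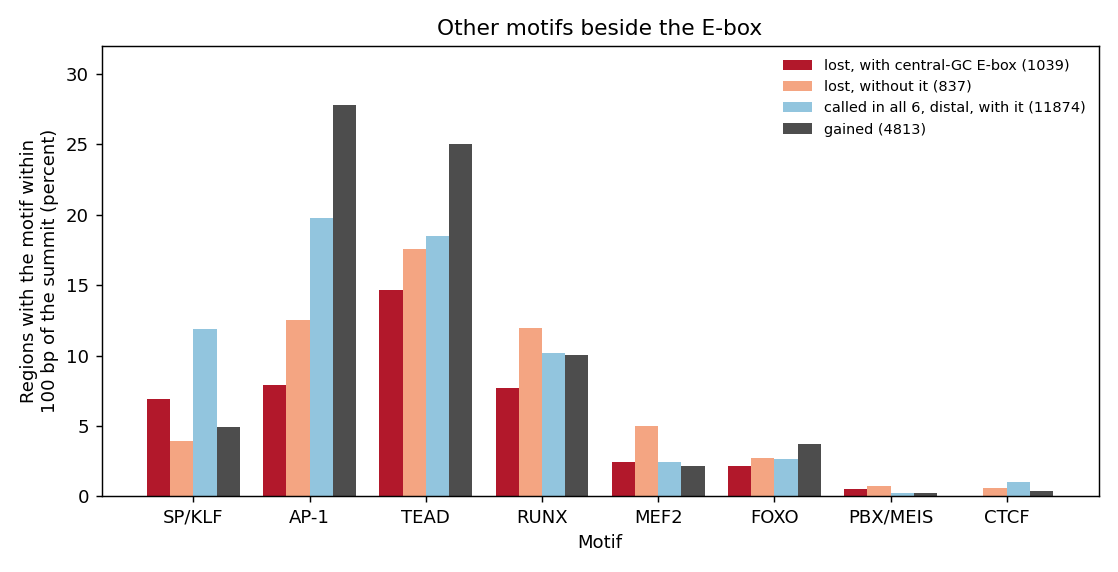
Percent of regions with a motif of 8 factor families within 100 bp of the summit (vertical axis) in lost regions with and without the central-GC E-box, in distal regions with it called in all 6 libraries, and in gained regions. AP-1 is at 7.89% in lost E-box regions and 27.8% in gained regions, and CTCF is at 0 in the lost E-box regions.

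The lost CAGCTG regions had a median GC content of 49.8% in the window, between the 45.3% of lost regions without CAGCTG and the 52.2% of distal CAGCTG regions called in all 6 libraries. Their median width was 690 bp, against 987 bp in the latter and 689 bp in lost regions without CAGCTG. A window had no CpG in 15.9% of lost CAGCTG regions and in 9.96% of distal CAGCTG regions called in all 6 libraries. In lost regions without CAGCTG it was 17.7%, so neither trait was particular to the CAGCTG group.

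The surroundings of the lost regions were tested with regions that did not choose them. Of the 47847 regions called in all 6 libraries, 2526 had their middle within 50 kb of the middle of a lost CAGCTG region, and 784 of the 1039 (75.5%) had such a neighbour. In MyoD-deleted against vector libraries, 172 neighbours (6.81%) ranked lower in fold enrichment and 133 (5.27%) ranked higher (limma on ranks within a library, adjusted p under 0.05 over all 47847). Over all regions tested 4.67% were lower and 4.12% higher. Of 2080 regions within 50 kb of a lost region without CAGCTG, 6.49% were lower and 5.72% higher, so these shares were not particular to the CAGCTG group. By summit pileup, centred on the median region, 523 neighbours (20.7%) were lower and 207 (8.19%) higher, against 12.8% and 11.4% of all. Near a lost region without CAGCTG the pileup shares were 19.1% lower and 10.5% higher. Without centring, each pileup was only divided by the smallest local background of its library. The median of all regions was then 0.23 higher on the log2 scale. With this scaling 342 neighbours (13.5%) were lower and 503 (19.9%) higher, against 8.03% and 24.7% of all. Before that division, the median pileup of regions called in all 6 was 81, 56 and 66 fragments in vector libraries. In MyoD-deleted libraries it was 58, 66 and 68. Numbers by rank were smaller with a library left out, at 62 to 136 lower and 32 to 122 higher.

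Neighbours split by whether they had the E-box themselves. Of 816 with their own CAGCTG, 104 (12.7%) ranked lower and 21 (2.57%) higher. Of 1710 without it, 68 (3.98%) ranked lower and 112 (6.55%) higher. Farther than 50 kb from any lost CAGCTG region, the shares were 9.24% lower and 2.28% higher with CAGCTG, and 2.74% and 4.75% without. Among all regions tested the share ranked lower was 2.80% with no copy, 7.90% with 1, 15.2% with 2 and 19.0% with 3 or more. Of 429 promoter neighbours 3 (0.699%) ranked lower and 10 (2.33%) higher, against 1.03% and 1.02% of all 10616 promoter regions tested.

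The nearest neighbours differed from the rest. Within 5 kb of a lost CAGCTG region, 46 of 227 regions (20.3%) ranked higher and 5 (2.2%) lower, whereas between 5 and 10 kb 13 of 321 (4.05%) ranked higher and 31 (9.66%) lower. In all, within 10 kb, 59 ranked higher and 36 lower, the opposite order to that within 50 kb. Fold enrichment is measured against a local background, and that background fell within 5 kb, with a median log2 change of −0.16 after deletion (centred), against 0.015 over all regions. By centred summit pileup, which is not divided by the local background, 40 of the 227 (17.6%) were higher and 35 (15.4%) lower. Regions within 5 kb of a lost region without CAGCTG had 17.4% ranked higher and a median log2 background change of −0.15. The 46 that ranked higher, a subset picked by that rise, had a median log2 background change of −0.016 and a median pileup change of 0.58 (both centred). Of these 46, 24 (52.2%) were also higher by pileup. The part of the background in these ranks was not tested further.

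**Figure D4:**
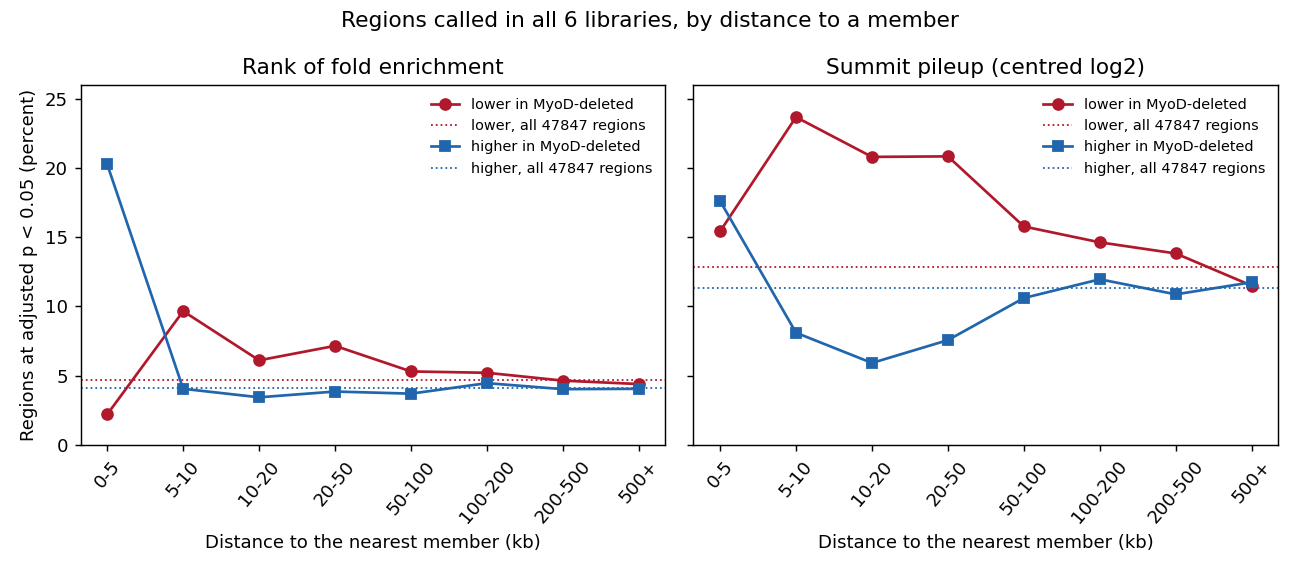
Percent of regions called in all 6 libraries at an adjusted p under 0.05 (vertical axis) by distance to the nearest lost CAGCTG region in kb (horizontal axis), by rank of fold enrichment on the left and by centred summit pileup on the right. Dotted lines are all 47847 regions. By rank, the share higher is 20.3% within 5 kb, and by pileup the share lower is 20.8% to 23.7% between 5 and 50 kb.

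The 5 neighbours with the smallest adjusted p among those ranked lower each held 1 CAGCTG. The sites of the first 3 are shown because they are E-box sites of the same kind that stayed called after deletion.
DIAPH2, chrX:95754541-95754600: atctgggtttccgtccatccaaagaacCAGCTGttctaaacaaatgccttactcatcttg
FGFR2, chr10:121310306-121310365: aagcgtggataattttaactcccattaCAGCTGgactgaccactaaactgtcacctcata
UNC5B, chr10:71125028-71125087: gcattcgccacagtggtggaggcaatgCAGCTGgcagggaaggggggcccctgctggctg

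Percentiles of these neighbours are among the 47847 regions called in all 6 libraries, a different scale from that of the lost regions. The region nearest to DIAPH2, a formin that nucleates actin, lay 20.6 kb from a lost CAGCTG region. It ranked at the 84.9, 83.5 and 81.7 percentile in vector libraries and at 6.01, 6.49 and 5.36 in MyoD-deleted libraries, with 69, 62 and 51 against 13, 14 and 14 fragments. The groups were far apart (limma adjusted p = 0.000648). The region nearest to FGFR2, a fibroblast growth factor receptor gene, was among the strongest of vector libraries at 99.0, 98.4 and 98.2 and fell to 64.2, 62.3 and 49.9 (adjusted p = 0.000944). Its pileup was 209, 146 and 166 fragments in vector and 35, 39 and 32 in MyoD-deleted libraries. The UNC5B region, of a netrin receptor gene, fell by 56.1 percentile points (adjusted p = 0.0024). The regions in SYT6 and SHANK2, genes of synaptic proteins, fell by 54.7 and 59.4 points (adjusted p = 0.00291 each). In each of these regions every vector library ranked above every MyoD-deleted library.

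Of the 5 neighbours with the smallest adjusted p among those ranked higher, 4 are described, and each of these held 0 CAGCTG. They were in an exon of LIN54, a subunit of the cell cycle complex DREAM, in introns of ESR1, the oestrogen receptor gene, and ACOT11, a thioesterase, and between genes near SEC61B, a subunit of the protein channel of the endoplasmic reticulum. The LIN54 region rose from 20.5, 18.3 and 9.52 in vector to 84.3, 72.6 and 84.7 in MyoD-deleted libraries (adjusted p = 0.00279), with 25, 17 and 16 against 54, 47 and 66 fragments. It stood 4.2 kb from a lost CAGCTG region, ACOT11 2.1 kb and SEC61B 3.6 kb, while ESR1 was at 47.5 kb. ESR1 rose by 64.6 percentile points (adjusted p = 0.00291), SEC61B by 56.8 (adjusted p = 0.00462) and ACOT11 by 38.0 (adjusted p = 0.00344). All 9 kept their direction by pileup, where their centred changes were between −2.24 and −1.98 on the log2 scale for the 5 lower and between 0.95 and 1.61 for the 4 higher.

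**Figure D5:**
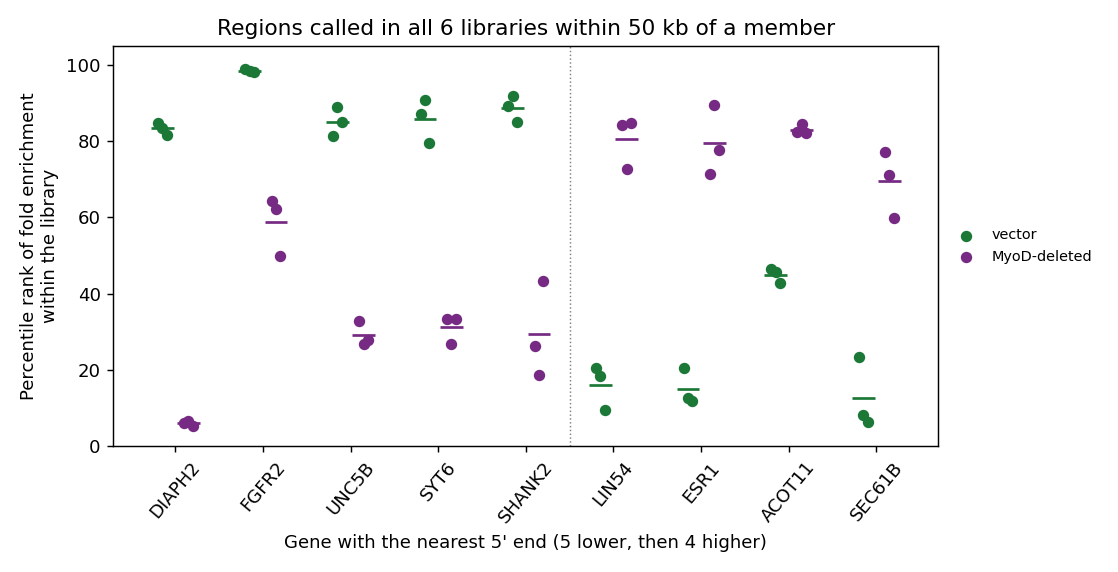
Percentile rank of fold enrichment within a library, among the 47847 regions called in all 6 (vertical axis), of 9 such regions within 50 kb of a lost CAGCTG region. The 9 were picked by smallest adjusted p in these libraries. Points are libraries and lines are group means, and the vector and MyoD-deleted libraries do not overlap at any of the 9, with DIAPH2 at 83.3 against 5.95 on average.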

How the data were processed

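ATAC-seq libraries of RH30 cells were grouped by their labels into 3 of vector and 3 of MyoD-deleted cells. The study's methods and the submitters' processing notes name bcl2fastq 2.20, Rsubread for alignment to hg38, GenomicAlignments for choosing proper pairs, and MACS2, with which the authors called the peaks of each library on its own. An exclusion list is named, but whether it was applied to these lists is not given in the sources used here. For every peak the authors deposited a score, which is 10 times the −log10 q cut to a whole number, a fold enrichment, which is the ratio of summit pileup to local background, and the −log10 p and −log10 q. None of these is scaled between libraries. The authors' own test used read counts and was not repeated.

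Peaks on chromosomes 1 to 22 and X were merged where they overlapped. The pileup and background of each peak were solved from its fold enrichment and −log10 p, given the Poisson model of MACS2, within a relative error of 0.0001 for 100% of peaks. A motif counted when its middle lay within 100 bp of the summit. MEF2 and CTCF sites were searched as fixed letters with unspecified bases between them. Intervals and limits from counts cover counting error only. Genes were the 19970 protein-coding genes of GENCODE version 44. Fold enrichment ranks within a library, made normal, were tested with limma 3.58.1 (R 4.3.3) over the 47847 regions called in all 6, with Benjamini-Hochberg adjustment. The labels share replicate numbers, but libraries of the same number did not deviate together, so no block was used.

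The lost regions, the gene lists and the named rules were chosen with earlier results of these data known. Named were the 10 lost CAGCTG regions of highest mean vector rank, up to 4 for each gene list, the 5 genes with the most of them (ties by the fewest vector regions) and the 5 neighbours of smallest adjusted p in each direction. Regions at 3 genes that these rules or lists name are not reported here. Other genes of a list are named without this rule, with values for a few chosen after they were seen. Alternatives were stricter peaks (−log10 q from 5 up), peak lists cut to the same length, 50% coverage, 100 bp windows, other E-box distances, −log10 p ranks, pileup, a block, each library left out, and other distances and assignments to genes. Pileup over the smallest background of the library, without centring, was added after seeing the data. Steps were tested on simulated data. Python 3.11.15 with pandas 2.3.3, SciPy 1.17.1 and pysam 0.24.0 was used.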

Additional observations from a re-analysis of the deposited data

How the results depend on the processing

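The number of lost CAGCTG regions was 1039 and stayed between 1040 and 1519 under stricter peaks, 50% coverage, 100 bp windows, summits by −log10 p, a distance of 200 bp and each library left out (1176 to 1512). It was 1673 with equal numbers of peaks and 665 with CAGCTG within 50 bp. Their share of lost regions was 55.4% (95% Wilson interval 53.1% to 57.6%). This interval covers counting error only and not the spread between libraries. The share was 51.8% with equal numbers of peaks, 35.4% within 50 bp, 64.2% within 200 bp and 50.9% to 54.3% with a library left out. Of the 1039, 864 (83.2%) overlapped such a region under equal numbers of peaks and 761 (73.2%) under a −log10 q of at least 5.

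Neighbours ranked lower numbered 172 and neighbours ranked higher 133. By −log10 p they were 421 and 193 (16.7% and 7.64%, against 10.9% and 9.04% of all regions). By centred pileup they were 523 and 207 (20.7% and 8.19%, against 12.8% and 11.4%). By pileup over the smallest background of the library, without centring and chosen after seeing the data, they were 342 and 503 (13.5% and 19.9%, against 8.03% and 24.7%). Within 10 kb they were 36 and 59, and within 200 kb 486 and 383. In regions called in at least 2 libraries of each group, 67 were higher. With a library left out they were 62 to 136 lower and 32 to 122 higher. With the replicate number as a block they were 107 and 79, and same-numbered libraries correlated at −0.041, −0.098 and 0.041 in their deviations. The cause of these differences was not tested, apart from the number of regions counted at each distance. All 9 named neighbours kept their direction and stayed past the threshold under the 10 alternatives run on them. They had been picked for the smallest adjusted p in these same libraries, so this says nothing of the other neighbours.

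The lists give calls and not reads. A lost region of few fragments can fall below the threshold by depth alone, and read totals, batches and the editing of MYOD1 could not be checked. With 3 libraries a group, p-values measure only the spread between these libraries.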
